A study of Mus musculus with 9 samples.

Results

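Interferon-stimulated genes are the genes that cells switch on when interferon binds its receptor, and 46 of them were followed here across mammary tumours and normal mammary glands of the mouse. They were taken by gene symbol: a gene counted as measured where the array had a probe set annotated to that symbol alone, and its probe set with the highest mean signal represented it. Of the 46 genes, 41 were measured, among 22180 genes in all, and 40 passed the filter on dim genes, among 17478. Oas1a, Ifi27l2a, Dtx3l and Gbp2 were listed only on probe sets shared with other symbols and Ifi44 on no listed probe set, so no value is given for these 5 genes. The list was divided into 25 type I-type genes, which are known mainly as targets of interferon-alpha and -beta, 9 gamma-type genes, which are known to respond strongly to interferon-gamma, and 12 shared genes. The division follows general knowledge of these genes, many of which respond to both kinds of interferon. Of the genes past the filter, 21 were type I-type, 8 gamma-type and 11 shared.

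The series held 9 Affymetrix Mouse Gene 2.0 ST arrays of frozen mammary tissue, 1 per female FVB mouse. There were 3 metastatic and 3 non-metastatic tumours of MMTV-Wnt1 transgenic mice, and 3 normal glands of wild-type littermates without a tumour. In the transgene, Wnt1 is placed under the mouse mammary tumour virus promoter, which is active in mammary epithelium. Mice of both genotypes drank 6% sucrose with 200 ug/ml doxycycline, and a tumour was taken when it had reached 20 mm. Metastatic tumours came from mice of 281 to 300 days, non-metastatic tumours from mice of 222 to 354 days and normal glands from mice of 533 to 556 days, so that age and the presence of a tumour cannot be told apart. Wnt1 itself had log2 signals of 11.20 to 12.04 in metastatic tumours, 11.80 to 12.40 in non-metastatic tumours and 5.45 to 5.71 in normal glands. The epithelial keratin Krt18 had signals of 11.03 to 11.45 in metastatic tumours, 10.92 to 11.74 in non-metastatic tumours and 8.91 to 10.51 in normal glands. Normal gland 2 stood apart from the other 2 glands: the median of 8 skeletal muscle genes lay 2.46 above the normal mean there, against -1.41 and -0.95, and that of 8 genes of differentiated epidermis 3.66 above it, against -1.99 and -1.83. All values below are log2 signals, on which a difference of 1 is a doubling, and levels are compared between samples of 1 gene, never between genes.

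Type I interferons signal through a receptor that carries the kinases JAK1 and TYK2 to a complex that holds STAT2 and IRF9 and binds the interferon-stimulated response element (ISRE) in front of its target genes. Interferon-gamma, made mainly by T cells and natural killer cells, signals through JAK1 and JAK2, and many of its target genes carry the gamma-activated site (GAS). The targets block virus replication, sense foreign nucleic acid, attract T cells and raise antigen presentation, and in tumours they are read as a trace of interferon in the tissue.

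Promoters that carry these elements are shown for 4 type I-type genes (Ifit1, Isg15, Rsad2 and Ifit3) and 4 gamma-type genes (Igtp, Irgm1, Irf1 and Gbp7), because the classes are named for the signal that reaches them. Each line is the 160 bases before the RefSeq gene start, 5' to 3' on the strand of the gene, from build GRCm38.p6. Capitals mark the ISRE core GAAANNGAAA on either strand, which reads TTTCNNTTTC on the other one, and the GAS core TTCNNNGAA, which reads the same on both strands.
Ifit1: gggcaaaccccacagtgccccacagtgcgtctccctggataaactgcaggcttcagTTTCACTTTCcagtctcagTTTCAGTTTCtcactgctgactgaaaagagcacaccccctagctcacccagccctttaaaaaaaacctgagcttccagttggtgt
Isg15: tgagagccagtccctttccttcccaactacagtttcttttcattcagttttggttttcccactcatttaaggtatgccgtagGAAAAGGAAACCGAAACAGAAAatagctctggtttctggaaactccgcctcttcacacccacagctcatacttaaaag
Rsad2: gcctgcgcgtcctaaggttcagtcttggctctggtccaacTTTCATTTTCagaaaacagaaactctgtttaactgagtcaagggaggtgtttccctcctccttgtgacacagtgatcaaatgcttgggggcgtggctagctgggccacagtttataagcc
Ifit3: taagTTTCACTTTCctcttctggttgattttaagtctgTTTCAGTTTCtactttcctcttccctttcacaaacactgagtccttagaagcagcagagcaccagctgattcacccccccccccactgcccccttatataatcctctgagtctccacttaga
Igtp: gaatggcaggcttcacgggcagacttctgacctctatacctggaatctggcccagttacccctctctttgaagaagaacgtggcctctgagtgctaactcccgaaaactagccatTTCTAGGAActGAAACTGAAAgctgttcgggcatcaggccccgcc
Irgm1: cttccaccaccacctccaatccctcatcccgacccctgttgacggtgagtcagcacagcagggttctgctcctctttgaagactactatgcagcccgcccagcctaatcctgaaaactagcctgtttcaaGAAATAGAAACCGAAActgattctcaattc
Irf1: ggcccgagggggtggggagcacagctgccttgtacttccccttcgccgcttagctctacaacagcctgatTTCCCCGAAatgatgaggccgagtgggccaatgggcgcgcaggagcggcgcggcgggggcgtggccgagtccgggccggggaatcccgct
Gbp7: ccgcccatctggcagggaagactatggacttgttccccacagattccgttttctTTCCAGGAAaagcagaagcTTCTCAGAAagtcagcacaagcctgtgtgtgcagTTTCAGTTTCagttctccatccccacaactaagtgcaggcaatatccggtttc
The stretches lie at chr19:34640729-34640888, plus strand, for Ifit1, chr4:156200819-156200978, minus strand, for Isg15, chr12:26456453-26456612, minus strand, for Rsad2, and chr19:34583369-34583528, plus strand, for Ifit3. Those of the gamma-type genes lie at chr11:58199396-58199555, plus strand, for Igtp, chr11:48871421-48871580, minus strand, for Irgm1, chr11:53769854-53770013, plus strand, for Irf1, and chr3:142530176-142530335, plus strand, for Gbp7. Ifit1 and Ifit3 each held 2 separate ISRE cores. The 3 matches of Isg15 overlapped each other in 1 run of repeats, as did the 2 matches of Irgm1. Igtp held a GAS core just before its ISRE core, Gbp7 held 2 GAS cores and 1 ISRE core, and the stretch of Irf1 held a GAS core alone.

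RefSeq promoters were found for 35 of the 46 genes, and the 250 bases before the start were searched. The ISRE core was present in 15 of the 35 genes (42.9%), against 3.46% of 27025 genes with a promoter, and the GAS core in 7 of the 35 (20%), against 8.13%. By class, the ISRE core was present in 7 of 17 type I-type genes, in 6 of 8 gamma-type genes and in 2 of 10 shared genes, so that these letters did not separate the classes. The GAS core was present in 3 of 17 type I-type genes, in 3 of 8 gamma-type genes and in 1 of 10 shared genes. That 1 gene was Bst2, where the GAS core overlapped an ISRE core. These matches describe letters in a window and do not show binding.

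A single tumour carried most of the signal. In non-metastatic tumour 1, 34 of the 40 genes lay more than 1 above the mean of the normal glands, where 4.93% of all genes did. On that array 39 of the 40 genes were above all 3 normal glands, where 38.7% of all genes were, and 39 of 40 were at their highest value of the 9 arrays, where 13.7% of all genes were. The exception was Ifit3. Of the other 5 tumours, none had more than 2 genes over 1 above the normal mean: 0 in metastatic tumour 1 (5.55% of all genes), 0 in metastatic tumour 2 (4.86%), 0 in metastatic tumour 3 (4.49%), 0 in non-metastatic tumour 2 (5.44%) and 2, Isg15 and Rtp4, in non-metastatic tumour 3 (5.95%). Instead, many of the genes lay below all 3 normal glands in these 5 tumours: 22 of 40 in metastatic tumour 1 (28.6% of all genes), 31 in metastatic tumour 2 (29.1%), 21 in metastatic tumour 3 (27%), 24 in non-metastatic tumour 2 (31%) and 16 in non-metastatic tumour 3 (29.9%). Non-metastatic tumour 1 came from the oldest of the tumour-bearing mice, with tumour onset at 306 days and collection at 354 days, against onset at 192 to 251 days and collection at 222 to 300 days for the others, and the part of age was not tested.

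**Figure D1:**
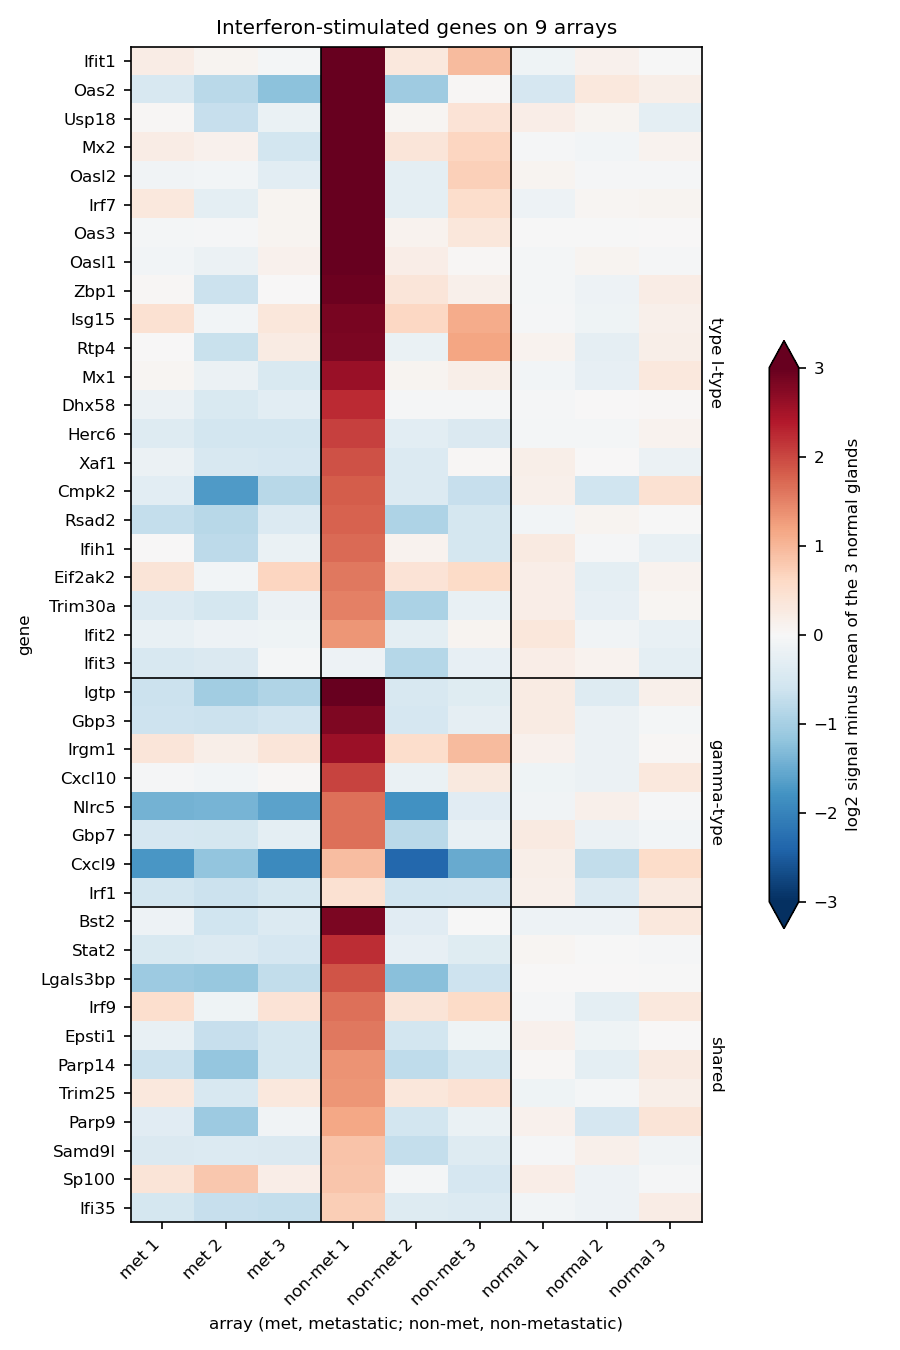
Heat map of the 41 measured interferon-stimulated genes (rows, by class and then by their value in non-metastatic tumour 1) on the 9 arrays (columns), coloured by log2 signal minus the mean of the 3 normal glands, with colours saturated beyond 3 in either direction. The column of non-metastatic tumour 1 is red in all rows but Ifit3, and the other 5 tumours are pale or blue in most rows.

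To see which genes stood highest in this tumour, all genes were ordered by the gap between non-metastatic tumour 1 and the highest of the other 8 arrays. Among the 50 genes with the largest gap (0.286% of all genes), 25 were members of the list and 5 more were in a second list of interferon-induced genes, while 20 were in neither list. The split is by list alone, so the 20 are not a count of genes unrelated to interferon. They include the RNA sensor gene Ddx58 and Oas1b and Oas1g, relatives of the listed Oas1a. Cxcl11 and Parp12, relatives of the members Cxcl10 and Parp14, are also among them. In all, 86 genes (0.492%) had a gap over 1, and 30 of these 86 were members. Among the 50 genes with the largest gap on any of the other 5 tumours, 0 were members. Oas2 had the largest gap of all genes, 3.98, followed among the members by Usp18 at 3.64, Ifit1 at 3.43, Mx2 at 3.31 and Igtp at 3.16. This ordering was made after the values had been seen and describes 1 tumour, with no replicate of it.

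RNA-binding antiviral effectors reached the highest values relative to normal gland. Ifit1, whose protein binds foreign RNA and blocks its translation, had log2 signals of 6.83, 6.69 and 6.54 in the metastatic tumours, 10.96, 6.91 and 7.54 in the non-metastatic tumours and 6.47, 6.72 and 6.60 in the normal glands. Its level in non-metastatic tumour 1 was 20.6 times the normal mean, and the other 2 non-metastatic tumours were also above all metastatic tumours and normal glands. Its relatives parted from it: Ifit2 was at 7.47 in non-metastatic tumour 1 and at 5.87 to 6.25 in the other 5 tumours, 2.49 times the normal mean. Ifit3 had log2 signals of 6.30, 6.35 and 6.73 in the metastatic tumours, 6.63, 5.92 and 6.53 in the non-metastatic tumours and 6.97, 6.88 and 6.49 in the normal glands, so that the 3 groups overlapped and non-metastatic tumour 1 was unremarkable. The 3 Ifit genes are related in sequence, and whether their probes separate them was not tested.

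The oligoadenylate synthetases make the messenger that activates RNase L, which cuts RNA. Oas2 had log2 signals of 6.48, 6.15 and 5.74 in the metastatic tumours, 11.26, 5.90 and 6.99 in the non-metastatic tumours and 6.46, 7.28 and 7.14 in the normal glands. It was 19.7 times the normal mean in non-metastatic tumour 1, while metastatic tumours 2 and 3 and non-metastatic tumour 2 were below all normal glands. Oas3 had log2 signals of 5.72, 5.75 and 5.87 in the metastatic tumours, 9.04, 5.89 and 6.13 in the non-metastatic tumours and 5.78, 5.77 and 5.81 in the normal glands. For Oas3 the normal glands differed by 0.04 in all, and the 3 non-metastatic tumours were above every other array. Oasl1, an Oas-like protein, had log2 signals of 6.09, 6.00 and 6.30 in the metastatic tumours, 9.43, 6.38 and 6.22 in the non-metastatic tumours and 6.12, 6.27 and 6.15 in the normal glands. Oasl2, the other one, had log2 signals of 7.35, 7.40 and 7.15 in the metastatic tumours, 11.20, 7.17 and 8.18 in the non-metastatic tumours and 7.56, 7.43 and 7.43 in the normal glands. Apart from non-metastatic tumour 1, Oasl1 stayed within 0.38 over 8 arrays, whereas Oasl2 was higher in non-metastatic tumour 3 than in all other arrays but that one. Eif2ak2, which encodes the kinase PKR that halts translation, was at 9.64 in non-metastatic tumour 1, 3 times the normal mean, and at 7.97 to 8.71 in the other 5 tumours.

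Other antiviral effectors moved less evenly. Mx2, a dynamin-like GTPase, had log2 signals of 5.55, 5.45 and 4.77 in the metastatic tumours, 9.28, 5.67 and 5.97 in the non-metastatic tumours and 5.28, 5.24 and 5.43 in the normal glands, with all 3 non-metastatic tumours above the normal glands and above the metastatic tumours. Mx1, its relative, did not pass the filter on dim genes and had log2 signals of 4.68, 4.44 and 4.16 in the metastatic tumours, 7.19, 4.69 and 4.77 in the non-metastatic tumours and 4.53, 4.37 and 4.93 in the normal glands, so that it stood out only in non-metastatic tumour 1. Many inbred mouse strains carry a defective Mx1. Rsad2, which encodes viperin, had log2 signals of 5.94, 5.83 and 6.26 in the metastatic tumours, 8.43, 5.74 and 6.13 in the non-metastatic tumours and 6.59, 6.75 and 6.66 in the normal glands, and the 5 tumours other than non-metastatic tumour 1 were all below the normal glands. Cmpk2, a mitochondrial nucleotide kinase whose gene neighbours Rsad2, had log2 signals of 7.77, 6.38 and 7.25 in the metastatic tumours, 9.90, 7.68 and 7.40 in the non-metastatic tumours and 8.24, 7.48 and 8.53 in the normal glands. It ranged widely within each group, and the tumours overlapped the normal glands. Bst2, or tetherin, which holds budding virus at the cell surface, was at 10.49 in non-metastatic tumour 1, 7.05 times the normal mean, and at 7.08 to 7.66 in the other 5 tumours. Samd9l, an antiviral factor that inhibits translation, was at 8.16 in that tumour, at 6.58 to 6.91 in the other 5 and at 7.19 to 7.46 in normal glands.

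Isg15 is a ubiquitin-like protein that is attached to other proteins, and Usp18 removes it and also damps the type I receptor. Isg15 had log2 signals of 6.61, 6.06 and 6.48 in the metastatic tumours, 8.99, 6.76 and 7.25 in the non-metastatic tumours and 6.12, 6.01 and 6.29 in the normal glands, and the 3 non-metastatic tumours were above all metastatic tumours, of which 1 lay within the range of the normal glands. Usp18 had log2 signals of 6.74, 6.01 and 6.50 in the metastatic tumours, 10.75, 6.75 and 7.11 in the non-metastatic tumours and 6.91, 6.79 and 6.40 in the normal glands, and the non-metastatic tumours were again above all metastatic ones but not above all normal glands. Herc6, the mouse ligase for ISG15, was at 10.09 in non-metastatic tumour 1, 4.12 times the normal mean, at 7.48 to 7.72 in the other 5 tumours and at 7.98 to 8.15 in normal glands. The ubiquitin ligases differed from each other: Trim25, which acts on the RNA sensor RIG-I, was at 10.07 in that tumour and 8.26 to 9.19 in the other 5, and Trim30a was at 7.18 and 4.73 to 5.51.

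Among the transcription factors, Irf7, which drives interferon-alpha genes, had log2 signals of 7.92, 7.30 and 7.67 in the metastatic tumours, 11.16, 7.31 and 8.12 in the non-metastatic tumours and 7.45, 7.66 and 7.67 in the normal glands. It was 11.9 times the normal mean in non-metastatic tumour 1, and the other tumours overlapped the normal glands. Stat2, a subunit of the complex that binds the ISRE, was at 10.14 in non-metastatic tumour 1, at 7.44 to 7.69 in the other 5 tumours and at 7.90 to 7.98 in normal glands. Irf9, the DNA-binding subunit of that complex, was at 10.11, at 8.31 to 9.03 in the other 5 tumours and at 8.16 to 8.76 in normal glands, so that in 4 of these 5 tumours Irf9 was above all normal glands while Stat2 was below them all.

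Sensors of nucleic acid were high in the same tumour. Zbp1, which binds Z-form nucleic acid, had log2 signals of 7.32, 6.63 and 7.29 in the metastatic tumours, 10.22, 7.65 and 7.42 in the non-metastatic tumours and 7.21, 7.14 and 7.49 in the normal glands, and the metastatic tumours were below the non-metastatic ones. Ifih1, which encodes the sensor MDA5 of double-stranded RNA, was 3.24 times the normal mean in non-metastatic tumour 1, and Dhx58, which encodes its partner LGP2, was 4.69 times the normal mean. Rtp4, a receptor-transporting protein with antiviral action, had log2 signals of 8.31, 7.63 and 8.54 in the metastatic tumours, 11.11, 8.10 and 9.48 in the non-metastatic tumours and 8.40, 8.02 and 8.47 in the normal glands, and non-metastatic tumour 3 was the next highest array. Xaf1, which binds an inhibitor of cell death, was at 9.59 in non-metastatic tumour 1 and at 7.17 to 7.72 in the other 5 tumours.

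Shared genes with other roles had smaller excesses in non-metastatic tumour 1 and were often below normal gland in the others. Parp9, an ADP-ribosyltransferase that works with Dtx3l, had log2 signals of 8.71, 7.95 and 8.94 in the metastatic tumours, 10.22, 8.50 and 8.85 in the non-metastatic tumours and 9.19, 8.53 and 9.42 in the normal glands. Parp14, another member of that enzyme family, had log2 signals of 8.36, 7.84 and 8.48 in the metastatic tumours, 10.37, 8.25 and 8.48 in the non-metastatic tumours and 9.03, 8.72 and 9.27 in the normal glands, and all tumours but non-metastatic tumour 1 were below the normal glands. Lgals3bp, a secreted glycoprotein that binds galectins, had log2 signals of 9.77, 9.71 and 10.11 in the metastatic tumours, 12.74, 9.60 and 10.23 in the non-metastatic tumours and 10.85, 10.86 and 10.83 in the normal glands. Its normal glands lay within 0.02 of each other, 5 tumours were below them and non-metastatic tumour 1 was above them. A second probe set of Lgals3bp gave 7.55, 7.42 and 7.96 in metastatic tumours, 10.77, 7.59 and 8.10 in non-metastatic tumours and 8.42, 8.16 and 8.51 in normal glands, the same order of groups. Ifi35, a leucine zipper protein, had log2 signals of 7.97, 7.82 and 7.79 in the metastatic tumours, 9.25, 8.11 and 8.09 in the non-metastatic tumours and 8.43, 8.37 and 8.73 in the normal glands, while its second probe set was between 5.92 and 6.35 on all 9 arrays. Epsti1 was at 9.26 in non-metastatic tumour 1, at 6.98 to 7.54 in the other 5 tumours and at 7.55 to 7.79 in normal glands. Sp100, a protein of nuclear bodies, had log2 signals of 9.54, 9.96 and 9.35 in the metastatic tumours, 9.99, 9.10 and 8.66 in the non-metastatic tumours and 9.35, 9.00 and 9.12 in the normal glands and did not follow the others: metastatic tumour 2 was within 0.03 of non-metastatic tumour 1. The 4 probe sets of Sp100 disagreed, and 1 of them was higher in metastatic tumours, at 7.33, 8.03 and 7.26, than in normal glands, at 6.57, 5.98 and 6.47.

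**Figure D2:**
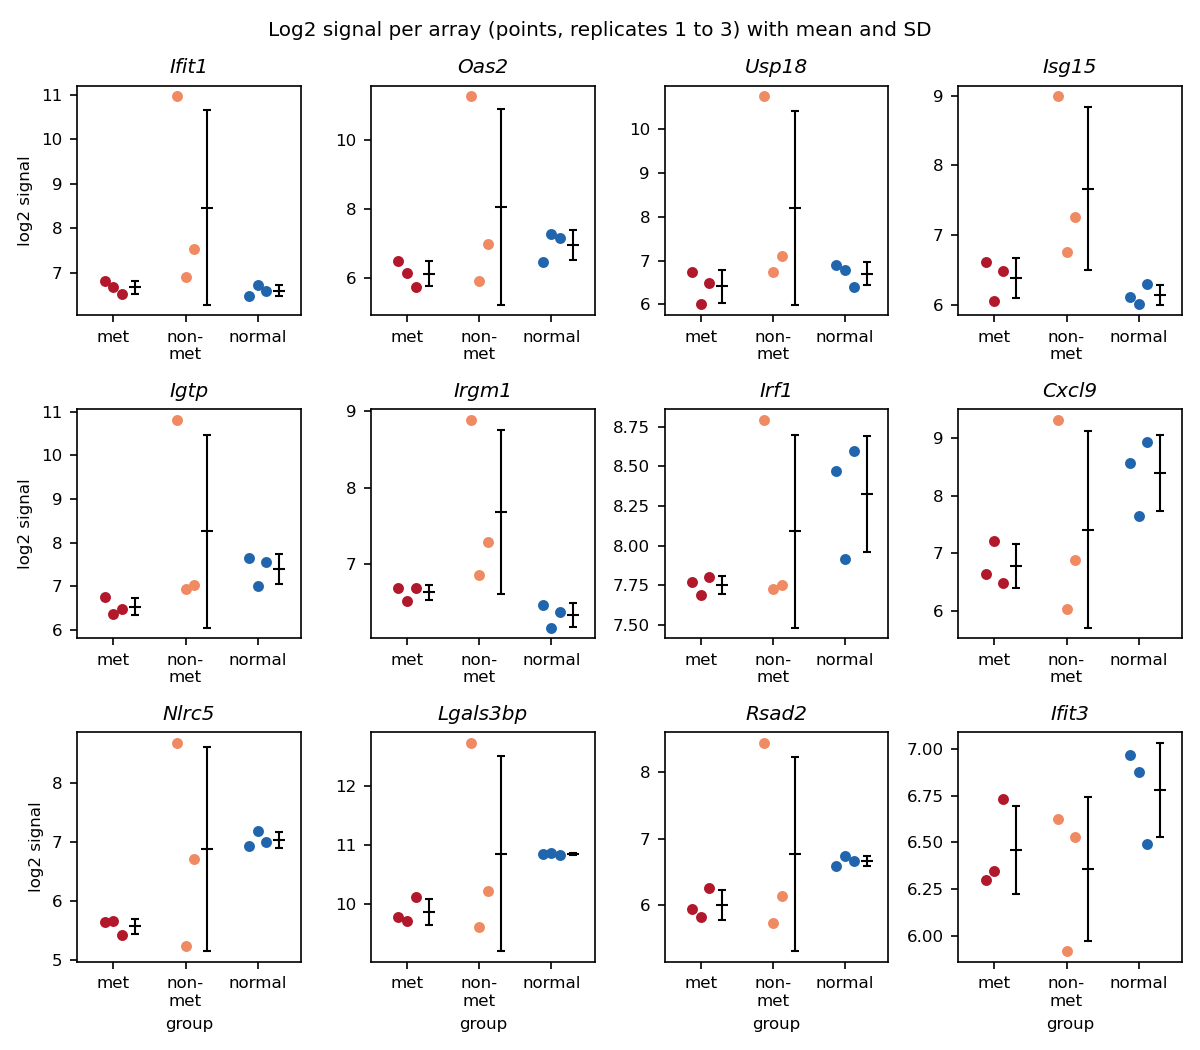
Log2 signal of 12 members on each array (points, replicates 1 to 3 from left to right in each group) with the group mean and SD (black), on an axis scaled for each gene. In 11 of the 12 panels non-metastatic tumour 1 lies above the other 8 arrays and makes the SD of its group large, and in the Ifit3 panel it does not.

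All gamma-type genes measured were at their highest in non-metastatic tumour 1, and 6 of the 8, all but Irgm1 and Cxcl10, were below the normal mean in each of the other 5 tumours. Irf1, a transcription factor induced through the GAS, had log2 signals of 7.77, 7.69 and 7.80 in the metastatic tumours, 8.80, 7.73 and 7.75 in the non-metastatic tumours and 8.47, 7.91 and 8.60 in the normal glands. The 5 other tumours lay within 0.11 of each other and below all normal glands. The guanylate-binding protein Gbp3, a GTPase that attacks intracellular pathogens, had log2 signals of 6.95, 6.93 and 7.00 in the metastatic tumours, 10.37, 7.07 and 7.31 in the non-metastatic tumours and 7.83, 7.39 and 7.51 in the normal glands. Gbp7, of the same family and the same chromosome 3 cluster, had log2 signals of 8.70, 8.68 and 8.91 in the metastatic tumours, 10.85, 8.41 and 8.99 in the non-metastatic tumours and 9.48, 9.02 and 9.12 in the normal glands. In both genes non-metastatic tumour 1 was highest and the metastatic tumours were below all normal glands. The immunity-related GTPases, which guard against bacteria and parasites in vacuoles, were split. Igtp had log2 signals of 6.76, 6.37 and 6.49 in the metastatic tumours, 10.82, 6.93 and 7.03 in the non-metastatic tumours and 7.65, 7.02 and 7.55 in the normal glands, and reached 10.6 times the normal mean in non-metastatic tumour 1. Irgm1, its regulatory relative, had log2 signals of 6.68, 6.51 and 6.68 in the metastatic tumours, 8.89, 6.85 and 7.29 in the non-metastatic tumours and 6.46, 6.16 and 6.36 in the normal glands. Irgm1 was the only member of the 40 in which all 6 tumours were above all 3 normal glands. The chemokines Cxcl9 and Cxcl10 attract T cells through the receptor CXCR3. Cxcl9 had log2 signals of 6.64, 7.21 and 6.48 in the metastatic tumours, 9.33, 6.03 and 6.88 in the non-metastatic tumours and 8.57, 7.66 and 8.94 in the normal glands, lower than in every normal gland in all tumours but non-metastatic tumour 1. Cxcl10 had log2 signals of 5.19, 5.14 and 5.26 in the metastatic tumours, 7.27, 5.03 and 5.52 in the non-metastatic tumours and 5.09, 5.05 and 5.55 in the normal glands, with no separation outside non-metastatic tumour 1. Nlrc5, which switches on MHC class I genes, had log2 signals of 5.63, 5.65 and 5.42 in the metastatic tumours, 8.69, 5.23 and 6.70 in the non-metastatic tumours and 6.92, 7.19 and 7.01 in the normal glands. Its 3 metastatic tumours were at least 1.28 below the lowest normal gland.

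The medians of the classes are given side by side. In non-metastatic tumour 1 the median of the 21 type I-type genes was 2.81 above the normal mean, with a range of -0.15 to 4.37, and the median of the 8 gamma-type genes was 1.84, with a range of 0.47 to 3.41. The 11 shared genes had a median of 1.36, and all genes a median of 0.04. In the other 5 tumours the type I-type median was near normal gland, at -0.09, -0.46 and -0.17 in metastatic tumours 1 to 3 and at -0.19 and 0.09 in non-metastatic tumours 2 and 3. The gamma-type median was lower than the type I-type median in each of these 5 tumours, at -0.59, -0.64 and -0.56 in metastatic tumours and at -0.55 and -0.30 in non-metastatic tumours 2 and 3. The type I-type median therefore exceeded the gamma-type median in 6 of 6 tumours, by 0.50, 0.19 and 0.38 in metastatic tumours and by 0.97, 0.36 and 0.40 in non-metastatic tumours, against -0.17, 0.15 and -0.05 in normal glands. These are medians over lists of unequal length and carry no test. With the shared genes counted as type I, the differences between the classes shrank in each comparison of groups.

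**Figure D3:**
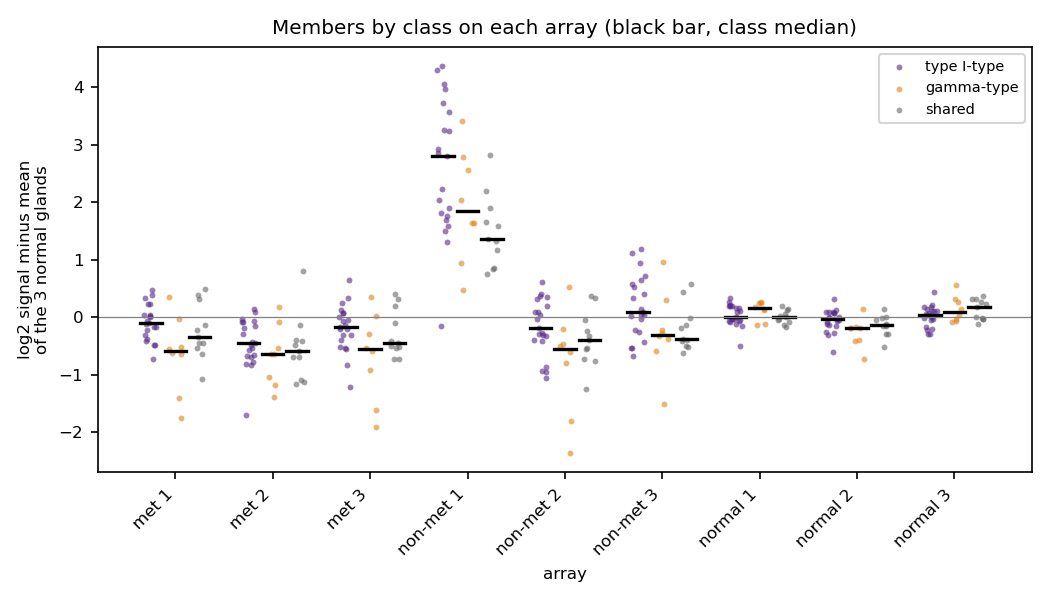
Log2 signal minus the mean of the normal glands for the 40 members past the filter (points) on each array, by class, with the class median as a black bar and points spread sideways for legibility. In non-metastatic tumour 1 the medians are 2.81 for type I-type, 1.84 for gamma-type and 1.36 for shared genes, and in the other 5 tumours the gamma-type median lies below the type I-type median.

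Metastatic tumours had a lower mean than non-metastatic tumours in 38 of the 40 members, and no member passed the adjusted test. By limma with Benjamini-Hochberg adjustment over all genes, 0 of 40 members passed an adjusted p of 0.05, where 0.00572% of all genes did, and the adjusted p-values ran from 0.88 to 0.96. At an unadjusted p of 0.05, 2 members passed, Isg15 and Irgm1, both lower in metastatic tumours, where 5.07% of all genes passed. The median difference of the members was -0.95, with -1.21 for type I-type and -0.90 for gamma-type genes, against -0.02 for all genes. Fits without non-metastatic tumour 1, here and below, are given because 39 of the 40 members were highest in it. Their calls thus depend on the values tested. Without that tumour the median was -0.19, 32 differences were negative, and 0 members passed the adjusted p, where 0.00572% of all genes did. At an unadjusted p of 0.05, 5 members passed in that fit, where 3.91% of all genes did: Ifit1, Isg15, Dhx58 and Irgm1 were lower in metastatic tumours and Sp100 was higher. Ifit1 averaged 6.68 ± 0.14 in metastatic and 8.47 ± 2.18 in non-metastatic tumours (SD, n = 3 each), so that the SD of the non-metastatic group exceeded the difference. The largest differences were those of Oas2 at -1.93 (SE 1.17), Usp18 at -1.79 (SE 0.92), Ifit1 at -1.79 (SE 0.89), Igtp at -1.72 (SE 0.91) and Mx2 at -1.71 (SE 0.83). Without that tumour they were -0.32 for Oas2, -0.51 for Usp18, -0.54 for Ifit1, -0.44 for Igtp and -0.56 for Mx2. In 13 members all metastatic tumours were below all non-metastatic tumours, where 5.84% of all genes were: Ifit1, Oas3, Mx2, Isg15, Usp18, Stat2, Dhx58, Ifi35, Trim25, Zbp1, Gbp3, Igtp and Irgm1. In these 13 genes non-metastatic tumours 2 and 3 were thus also above the metastatic tumours, by less than non-metastatic tumour 1. The margin between the lowest non-metastatic and the highest metastatic tumour was small. It was narrowest in Usp18, at 6.749 against 6.743, and widest in Igtp, at 6.93 against 6.76.

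Non-metastatic tumours had a higher mean than normal gland in 34 of the 40 members with all 9 arrays and in 15 without non-metastatic tumour 1, so that 19 differences turned negative. With all arrays 0 of 40 members passed the adjusted p of limma, where 18.8% of all genes did, and the lowest adjusted p-values were 0.066 for Isg15, at a difference of 1.53 (SE 0.50), and 0.07 for Irgm1, at 1.35 (SE 0.45). At an unadjusted p of 0.05, 4 members passed, Isg15, Irf9, Eif2ak2 and Irgm1, all higher in tumours, against 34.4% of all genes. The median difference of the members was 0.60, with 1.09 for type I-type and 0.44 for gamma-type genes. Without non-metastatic tumour 1 it was -0.24, with 0.12 for type I-type and -0.47 for gamma-type genes. In that fit Isg15 rose by 0.87 (SE 0.22, adjusted p = 0.042) and Irgm1 rose by 0.74 (adjusted p = 0.031), 2 of 40 where 8.69% of all genes rose. Lower in the 2 remaining tumours were Rsad2 at -0.73, Samd9l at -0.56, Cxcl9 at -1.94 and Lgals3bp at -0.93, 4 of 40 where 5.68% of all genes fell. With normal gland 2 left out too, 5 of these 6 calls were lost and 2 members passed, Cxcl9 and Irf1, both lower in tumours, where 5.58% of all genes passed. In 8 members all 3 non-metastatic tumours were above all normal glands, where 21.9% of all genes were: Ifit1, Oas3, Mx2, Isg15, Irf9, Trim25, Eif2ak2 and Irgm1.

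Metastatic tumours had a lower mean than normal gland in 32 of the 40 members, and which members passed depended on the arrays in the fit. In the fit over all 9 arrays 0 of 40 members passed the adjusted p, where 13.3% of all genes did, and 0 passed an unadjusted p of 0.05, where 30.5% did. In 17 members all metastatic tumours were below all normal glands, where 15.3% of all genes were: Oasl2, Rsad2, Irf1, Stat2, Dhx58, Xaf1, Ifi35, Parp14, Samd9l, Gbp3, Gbp7, Igtp, Cxcl9, Herc6, Epsti1, Lgals3bp and Nlrc5. In 1 member, Irgm1, they were all above, where 23.2% of all genes were. The median difference was -0.35, with -0.20 for type I-type and -0.60 for gamma-type genes, against 0.04 for all genes. With the SD over 3 arrays, Nlrc5 averaged 5.57 ± 0.13 in metastatic tumours against 7.04 ± 0.13 in normal glands, and Cxcl9 averaged 6.78 ± 0.38 in metastatic tumours against 8.39 ± 0.66 in normal glands. With only the metastatic tumours and normal glands in the fit, 10 of 40 members fell, where 5.24% of all genes fell, and 0 rose, where 6.53% rose. These were Nlrc5 at -1.47 (SE 0.12, adjusted p = 0.0056), Lgals3bp at -0.98 (SE 0.13, adjusted p = 0.018), Cxcl9 at -1.61 (SE 0.37, adjusted p = 0.044), Igtp at -0.86, Rsad2 at -0.65, Ifi35 at -0.65, Gbp3 at -0.62, Herc6 at -0.50, Stat2 at -0.45 and Samd9l at -0.43. With non-metastatic tumour 1 alone left out, 9 members fell, the same without Samd9l, where 5.36% of all genes fell. Without normal gland 2 as well, 5 fell, where 4.78% of all genes passed in either direction: Cxcl9, Gbp3, Ifi35, Igtp and Irf1. The second probe set of Ifi35 differed by only -0.06 between metastatic tumours and normal glands, and these groups overlapped. That of Lgals3bp differed by -0.72, without overlap. In bulk tissue, fewer cells that express a gene and less of its RNA in each cell cannot be told apart.

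Both tumour groups together were compared with normal gland in the same fit, and these comparisons share their arrays. There 0 of 40 members passed the adjusted p of limma, where 22.8% of all genes did, and 0 passed an unadjusted p of 0.05, where 37.1% did. In 1 member, Irgm1, all 6 tumours were above all normal glands, where 15.7% of all genes were. Without non-metastatic tumour 1, 12 members fell, where 8.85% of all genes fell, and 1 rose, Irgm1 by 0.52 (adjusted p = 0.033), where 13.3% of all genes rose. Those that fell were Cxcl9 at -1.77 (SE 0.35, adjusted p = 0.016), Nlrc5 at -1.27 (SE 0.31, adjusted p = 0.028), Lgals3bp at -0.96, Parp14 at -0.71, Rsad2 at -0.69, Igtp at -0.64, Irf1 at -0.58, Ifi35 at -0.53, Gbp3 at -0.50, Samd9l at -0.49, Herc6 at -0.44 and Stat2 at -0.38. By class, 6 of 8 gamma-type genes passed, 1 of them upward, against 2 of 21 type I-type and 5 of 11 shared genes. This fit leaves out the tumour in which these same genes stood highest, so the tally is no test of the classes. With normal gland 2 left out too, 8 members fell and 0 rose, where 10.7% of all genes passed in either direction.

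**Figure D4:**
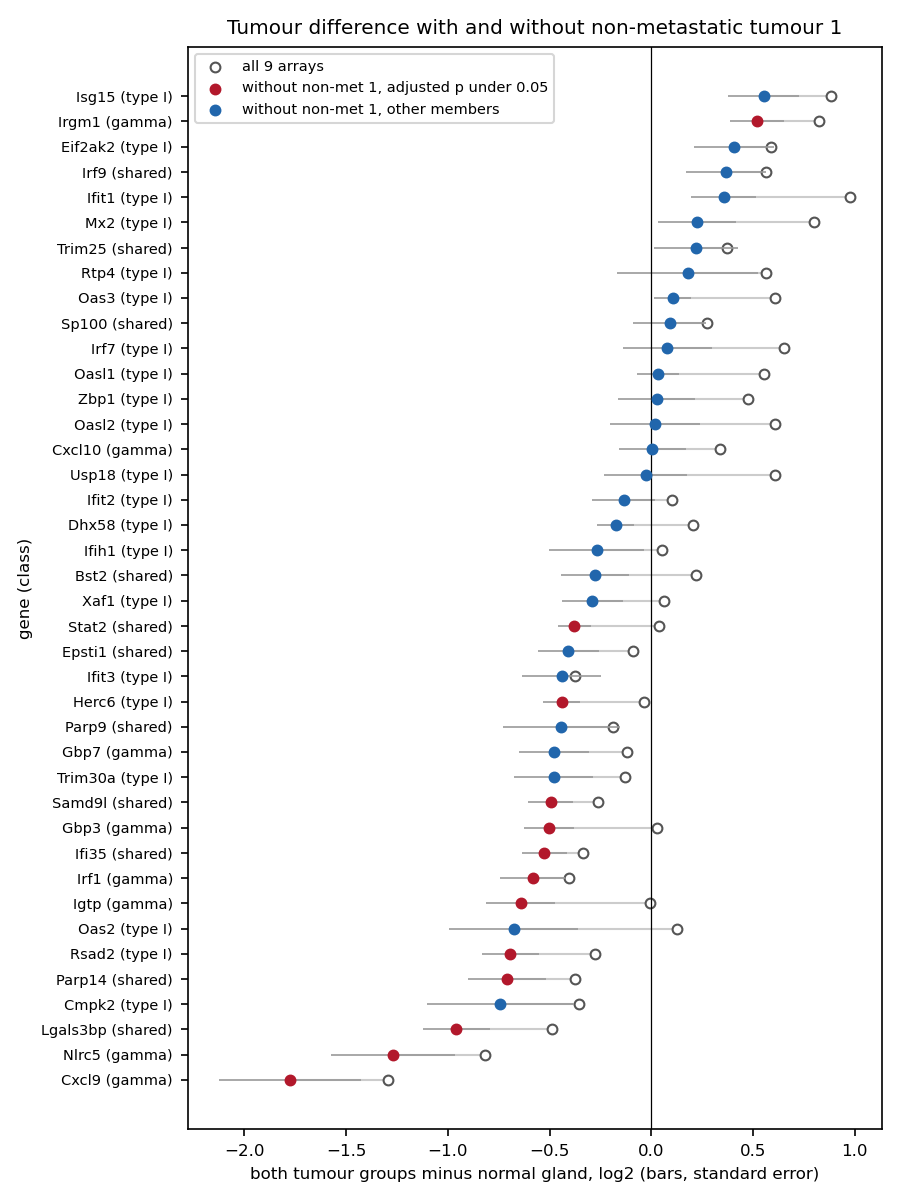
Difference between both tumour groups and normal gland for the 40 members past the filter, from all 9 arrays (open points) and without non-metastatic tumour 1 (filled points with standard errors, red where limma's adjusted p was under 0.05). Leaving that tumour out moved all 40 differences downward, and 13 members then passed, Irgm1 above 0 and 12 below it. That tumour is singled out because most of these same genes stood highest in it.

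The signal upstream of these genes was examined with lists of the pathway. Of 17 interferon genes measured, 10 passed the filter, and 0 differed in any of the 4 comparisons. Ifnb1 was at 3.97, 4.05 and 4.06 in metastatic tumours, 4.37, 3.71 and 3.85 in non-metastatic tumours and 4.12, 4.44 and 4.37 in normal glands, and it did not pass the filter. Ifng was at 5.13, 5.13 and 5.13 in metastatic tumours, 5.21, 5.11 and 4.92 in non-metastatic tumours and 5.28, 5.00 and 5.13 in normal glands, so that in non-metastatic tumour 1 both of these ligands lay within the range of the normal glands. Ifng had the same value on the 3 metastatic arrays, and the 30th percentile of the 9 arrays was 4.83 to 4.95. Signals this low say little about either ligand. In non-metastatic tumour 1, 3 of the 17 interferon genes, Ifna11, Ifna14 and Ifnl3, lay above all normal glands, where 38.7% of all genes did. Of the 17, 1 was at its highest of the 9 arrays there, Ifna14, where 13.7% of all genes were. Ifna14 was at 5.97, 6.04 and 6.04 in metastatic tumours, 6.52, 6.15 and 6.04 in non-metastatic tumours and 5.91, 5.71 and 6.31 in normal glands. Of the 6 receptor subunits, 1 rose and 2 fell in the pooled tumour groups against normal gland, where 13.6% of all genes rose and 9.13% fell: Ifnar1 was at 9.87, 10.10 and 9.95 in metastatic tumours, 9.94, 10.07 and 10.09 in non-metastatic tumours and 9.70, 9.77 and 9.65 in normal glands, a difference of 0.29 (limma adjusted p = 0.044). Ifngr1, the ligand-binding chain of the gamma receptor, was at 10.00, 9.83 and 9.79 in metastatic tumours, 9.93, 9.95 and 9.84 in non-metastatic tumours and 10.95, 10.95 and 10.77 in normal glands, and fell by 1.00 (limma adjusted p = 0.00076) with all 6 tumours below all normal glands. Ifnar2 was the other subunit that fell, while 0 of the kinases Jak1, Jak2 and Tyk2 passed.

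Of 14 sensors and inducers of interferon outside the member list, 3 rose in the pooled tumour groups against normal gland (Cgas, Sting1 and Myd88) and 2 fell (Mavs and Ikbke), against the same shares of all genes. Without non-metastatic tumour 1, Sting1 (limma adjusted p = 0.069) and Ikbke (adjusted p = 0.063) did not pass. The RNA sensor gene Ddx58 was at 10.12 in non-metastatic tumour 1 and at 8.34 to 8.68 in the other 5 tumours. In that tumour 7 of these 14 genes were at their highest of the 9 arrays, where 13.7% of all genes were. Of 6 feedback inhibitors, 1 rose in the pooled tumour groups against normal gland, the phosphatase gene Ptpn2, where 13.6% of all genes rose. Socs1 was at 6.10, 6.00 and 6.00 in metastatic tumours, 6.41, 6.17 and 5.97 in non-metastatic tumours and 6.42, 6.21 and 6.10 in normal glands.

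A second list of 29 measured interferon-induced genes, also chosen with earlier results of these data known, had the same outline. In non-metastatic tumour 1, 21 of the 29 were at their highest of the 9 arrays, where 13.7% of all genes were. There 16 were more than 1 above the normal mean, where 4.93% of all genes were. The median was 1.08 in that tumour, against -0.58 to -0.39 in the other 5 tumours. With the largest differences between metastatic and non-metastatic tumours, Apol9b was at 5.79, 5.79 and 5.13 in metastatic tumours and 10.44, 5.40 and 6.53 in non-metastatic tumours, and Ddx60 at 6.07, 5.76 and 5.81 and 9.35, 5.37 and 6.32 in the same groups. Irgm2 and Apol9a followed, at 9.74 and 10.88 in non-metastatic tumour 1. Against normal gland, 0 of the 27 past the filter rose in metastatic tumours, where 7.35% of all genes rose, and 3 fell (Ifitm1, Slfn5 and Cd274), where 6% of all genes fell. Without non-metastatic tumour 1 in the fit, 1 rose, Apol9a, where 6.71% of all genes rose. In that fit 7 fell, where 5.36% of all genes fell: Gbp4, Gbp5, Gbp9, Gbp10, Slfn5, Ifi207 and Cd274. The largest differences with all arrays were those of Ifi205, Cd274, Ifi204 and Slfn5, of which Ifi205 (limma adjusted p = 0.07) and Ifi204 (adjusted p = 0.17) did not pass. Cd274, which encodes the checkpoint ligand PD-L1, was at 6.52, 6.26 and 6.20 in metastatic tumours, 7.83, 7.04 and 6.48 in non-metastatic tumours and 8.80, 8.80 and 7.71 in normal glands, so that non-metastatic tumour 1 lay within the range of the normal glands.

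**Figure D5:**
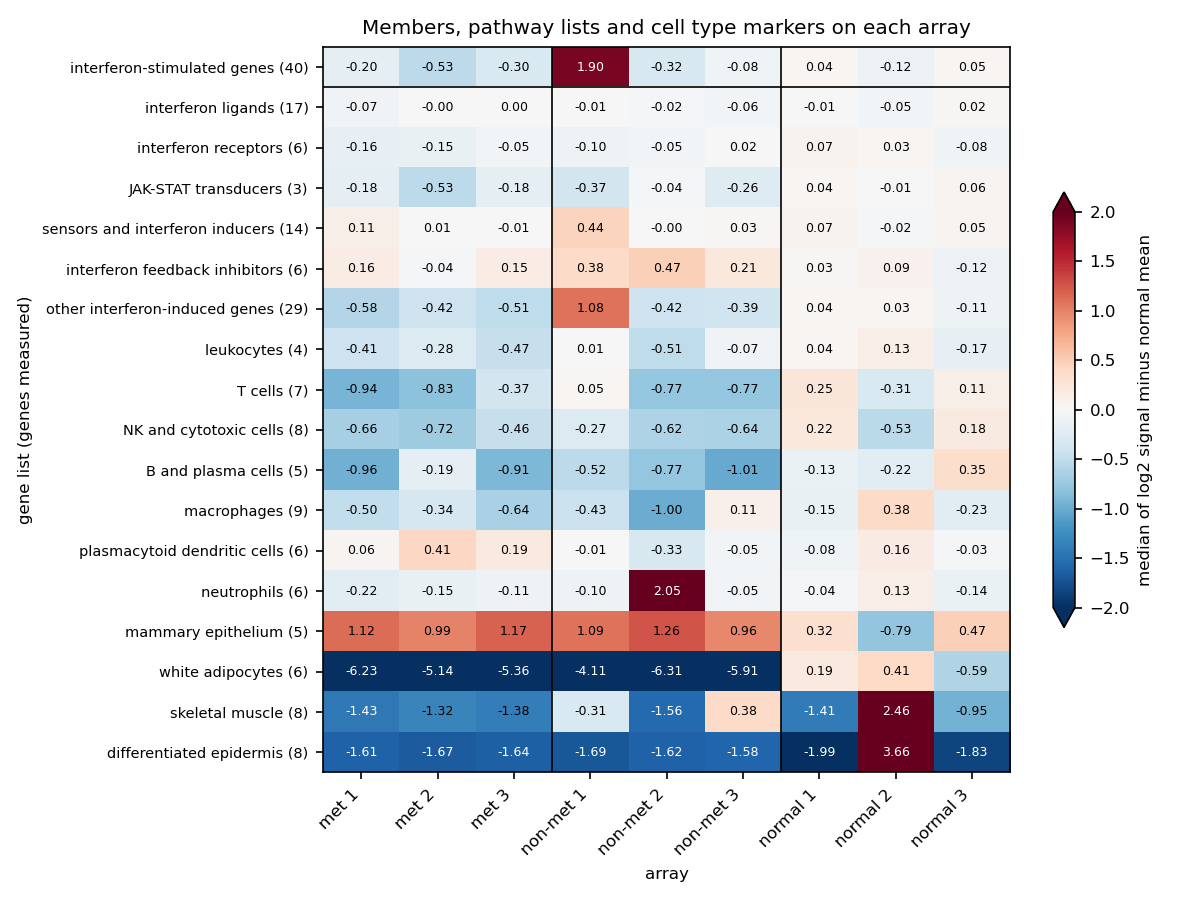
Median of log2 signal minus the mean of the normal glands for the members past the filter, for 6 interferon pathway lists and for 11 lists of cell type markers (rows, with the number of genes measured) on the 9 arrays (columns); colours saturate at 2 in either direction and the medians are printed. Members are at 1.90 in non-metastatic tumour 1, where interferon ligands are at -0.01 and T cell markers at 0.05.

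Markers of other cell types moved with these genes in part, and their part in the results was not tested. Of 7 measured T cell markers, 6 were highest among the tumours in non-metastatic tumour 1 and 0 were above all normal glands. Cd3e was at 7.35, 7.41 and 7.30 in metastatic tumours, 8.56, 6.86 and 6.72 in non-metastatic tumours and 8.58, 7.83 and 8.53 in normal glands. The log2 of the summed T cell signals was 9.11 to 9.32 in metastatic tumours, 8.98 to 10.09 in non-metastatic tumours and 9.79 to 10.33 in normal glands, so that the tumours low in gamma-type genes were also low in T cell markers. For 8 markers of natural killer and cytotoxic cells the sum was 8.41 to 8.64 in metastatic tumours, 8.36 to 8.96 in non-metastatic tumours and 8.67 to 9.36 in normal glands. For 9 macrophage markers it was 12.78 to 13.01 in metastatic tumours, 12.11 to 13.37 in non-metastatic tumours and 13.27 to 13.91 in normal glands. Among them the interferon-inducible receptor gene Fcgr1 alone was highest in non-metastatic tumour 1, at 8.96.

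Plasmacytoid dendritic cells are a main source of interferon-alpha, and their marker Siglech was at 5.33, 6.17 and 4.83 in metastatic tumours, 5.49, 5.18 and 5.54 in non-metastatic tumours and 6.02, 5.38 and 5.81 in normal glands. Of their 6 measured markers, 1 was highest among the tumours in non-metastatic tumour 1 and 0 were highest of the 9 arrays there. The log2 of their summed signals was 11.09 to 13.91 in metastatic tumours, 10.41 to 11.22 in non-metastatic tumours and 10.23 to 11.05 in normal glands, and among the tumours it was lowest in non-metastatic tumour 1. Ly6d, at 12.10 in metastatic tumour 1, and Klk1, at 13.49 in metastatic tumour 2, had the highest signals of the list there. These single genes made up most of the sum in those tumours, so the sum cannot be read as a number of plasmacytoid dendritic cells. Klk1 also had the largest gap of all genes between metastatic tumour 2 and the other 8 arrays, 7.71. Adipocyte markers stood higher in non-metastatic tumour 1 than in the other 5 tumours in 6 of 6 genes. Adipoq was at 5.01, 5.89 and 5.69 in metastatic tumours, 7.06, 4.91 and 5.30 in non-metastatic tumours and 11.05, 11.22 and 10.25 in normal glands. The sum over 6 adipocyte markers was 8.53 to 10.08 in metastatic tumours, 8.26 to 10.85 in non-metastatic tumours and 14.38 to 15.11 in normal glands. The 8 skeletal muscle markers summed to 8.89 to 9.45 in metastatic tumours, 9.00 to 11.50 in non-metastatic tumours and 9.60 to 13.50 in normal glands. B and plasma cell markers summed to 7.61 to 10.14 in metastatic tumours, 7.62 to 9.12 in non-metastatic tumours and 9.20 to 10.81 in normal glands. General leukocyte markers summed to 9.70 to 9.92 in metastatic tumours, 9.78 to 10.20 in non-metastatic tumours and 10.07 to 10.46 in normal glands. Neutrophil markers were high in non-metastatic tumour 2 alone among the tumours, with a median of 2.05 above normal gland, and that tumour had 0 members over 1 above the normal mean.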

How the data were processed

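RNA of 9 mouse tissues was labelled and hybridised to Affymetrix Mouse Gene 2.0 ST arrays by the authors. The deposited values are log2 signals of 41345 probe sets, made with RMA per the submitters' processing notes; its version and settings are not given in the sources used here, and no scanner files or batch records were used. From these values, genes were named through the platform annotation: 23521 probe sets had 1 gene symbol, 1814 several and 16010 were not listed. The probe set with the highest mean represented a gene, and genes above the 30th percentile of the array on at least 3 arrays were kept. RMA brings the probe signals of all arrays to 1 distribution before they are summarised, so a change shared by most genes would not be seen. The medians of the deposited probe set values still ran from 5.80 to 5.94 over the arrays. The number of arrays limits the precision.

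Groups were taken from the titles. All 9 arrays entered a model of 3 group means (6 residual degrees of freedom), fitted with lmFit and eBayes in limma 3.58.1 under R 4.3.3, two-sided, with Benjamini-Hochberg adjustment over 17478 genes. The labels call the samples biological replicates. The procedure was tested on simulated data. The members, their classes and all gene lists were chosen with earlier results of these data known, so no test over the list is given. Per-array values are given for the 12 largest differences of each comparison between 2 groups and for all gamma-type genes; other members are given by range or count, and pathway lists by counts with named examples. Some further genes (Cd3e, Adipoq, Fcgr1, Siglech, Ly6d, Klk1, Ifna14, Socs1, Krt18 and Ddx58) were named after their values were seen. Alternatives were another filter, probe set rule, scaling, eBayes setting, array weights, fewer groups in the fit, a replicate block, age as a covariate and each array left out. Replicate numbers did not pair the samples: of 9 pairs of same-numbered arrays, 2 had deviations correlated above 0.1.

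Promoters are RefSeq sequences of build GRCm38.p6, searched over the 250 bases before the start; 32851 promoters were searched.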

Additional observations from a re-analysis of the deposited data

How the results depend on the processing

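Of 742 repeats of 36 single-member differences under 22 alternatives, 703 kept their direction and their side of the threshold, 37 newly passed it and 2 reversed. Both reversals were Oas2 in non-metastatic tumours against normal gland, at -0.52 without non-metastatic tumour 1 (-0.52 to 2.16 over all arrays left out in turn) and -0.36 without normal gland 2 as well, a setting chosen after seeing the data. Over all 40 members, leaving out non-metastatic tumour 1 turned the sign of 19 differences between non-metastatic tumours and normal gland, of 6 between the tumour groups and of 9 between both tumour groups and normal gland. The count of members passing, 0 in each comparison, stayed 0 between the tumour groups under every alternative run. In non-metastatic tumours against normal gland it was 2 with median centring (22.6% of all genes passed), 4 with array weights (30.7%), 0 to 6 with each array left out in turn, and 2 without non-metastatic tumour 1 and normal gland 2 (5.58%). Its 6 came without non-metastatic tumour 1 (14.4%), and without non-metastatic tumour 2 it was 3, Isg15, Irgm1 and Rtp4 (8.72%). In metastatic tumours against normal gland it was 4 with array weights (37.2%), 10 with only these groups fitted (11.8%), 5 when normal gland 2 was also left out of that fit (3.91%), 0 to 9 with each array left out (12.1% at 9, without non-metastatic tumour 1) and 5 without both arrays (4.78%). In both tumour groups against normal gland it was 5 with array weights (43.5%), 0 to 13 with each array left out (22.2% at 13, without non-metastatic tumour 1) and 8 without both arrays (10.7%). The shares of members with array weights were thus below those of all genes. The fit with the replicate number as a block gave 0 in every comparison, and same-numbered arrays had deviations correlated at -0.28 to 0.17. The type I minus gamma difference of medians between tumour groups, -0.31, was -0.39 to -0.072 with each array left out, -0.072 being the value without non-metastatic tumour 1, and -0.056 with shared genes counted as type I; with that change it was 0.18 instead of 0.65 in non-metastatic tumours and 0.23 instead of 0.54 in both tumour groups against normal gland. The cause of these changes was not tested beyond the arrays named.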
